A study of Mus musculus with 24 samples.

Results

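The 10 genes described here are used to mark the stem cells of the small intestinal crypt, or that Wnt signalling switches on there, and were followed across diet and metformin in the distal small intestine of mice: Lgr5, Olfm4, Ascl2, Smoc2, Axin2, Rnf43, Znrf3, Slc12a2, Tnfrsf19 and Cdk6. They were taken by symbol from the count table, and make up 10 of the 55536 genes it lists. The animals were C57BL/6N mice of both sexes in 4 groups of 6. The CD group ate a control diet with 10% of energy from fat, and the HFD group a high-fat diet with 60%. The CDmetf and HFDmetf groups ate the same diets for 20 weeks and then also received metformin, an oral glucose-lowering drug, in drinking water at 50 mg/kg body mass/day for 10 weeks. Diets began when the mice were a few weeks old, and each library came from 1 animal out of its own cage. Libraries are named here by group, labelled sex (M or F) and replicate number, so that CD M1 is the first male on the control diet.

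Stem cells at the crypt base divide throughout life and renew the whole epithelium of the gut. Wnt proteins from neighbouring Paneth cells and stromal cells stabilise beta-catenin, which enters the nucleus and, with TCF/LEF factors, turns on target genes. R-spondins, which bind Lgr5 and its relatives, strengthen that signal by clearing the ubiquitin ligases Rnf43 and Znrf3, which otherwise remove Wnt receptors from the cell surface, so the pathway carries its own brakes.

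All 10 genes were detected in all 24 libraries, and all 10 passed the filter on low counts, as did 14076 genes in total. Reads on genes ran from 1829690 to 40606442 per library (median 3467308), and the 14 shallower libraries held at most 5186123, the 10 deeper ones at least 9261065. Read counts were lowest for Ascl2, at 5 to 154 per library, and for Tnfrsf19, at 8 to 767. A few libraries call for care. In CD M3, 10 genes led by ribosomal RNA took 85.4% of the reads, against 9.22% to 36.6% in the others. In HFD M2 and HFD F2, reads from X- and Y-linked genes went against the labelled sex. The main results are also given without them. Markers of the labelled tissue were present, since 0 of 7 Paneth cell and at most 1 of 15 enterocyte markers were at 0 reads in a library. The tissue was a whole piece of gut. Fewer stem cells, less RNA per stem cell and a different share of other cells cannot be told apart.

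Levels are read counts scaled to a fixed library total (CPM), with library sizes scaled by TMM (trimmed mean of M-values), and can be compared between genes only per kilobase of annotated exon. On that per-kilobase scale, Olfm4, a secreted glycoprotein of crypt base cells, stood far above the rest at 194.8 ± 79.5 CPM per kb (SD, n = 24). Its lowest library, at 89.4, lay above the highest library of the next gene, Slc12a2, at 51.7. Slc12a2, a sodium, potassium and chloride cotransporter of crypt cells, averaged 32.02 ± 10.2 CPM per kb, and Axin2, a scaffold of the complex that degrades beta-catenin, 19.8 ± 6.54, with overlapping ranges. Then came Smoc2, a secreted calcium-binding matrix protein, at 7.09 ± 1.63, Rnf43 at 6.25 ± 1.00 and Cdk6, a kinase that drives entry into the cell cycle, at 6.01 ± 1.87, and these 3 did not differ beyond their spread. The last 4 also overlapped one another. They were Lgr5, the R-spondin receptor that defines these stem cells, at 3.33 ± 0.954 CPM per kb, Znrf3 at 2.93 ± 0.576, Ascl2, a transcription factor that sets stem cell fate, at 2.43 ± 0.749, and Tnfrsf19 (Troy), a receptor of the TNF family, at 2.28 ± 0.657. Between animals, Rnf43 varied least (coefficient of variation 15.99%) and Olfm4 most (40.8%).

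**Figure D1:**
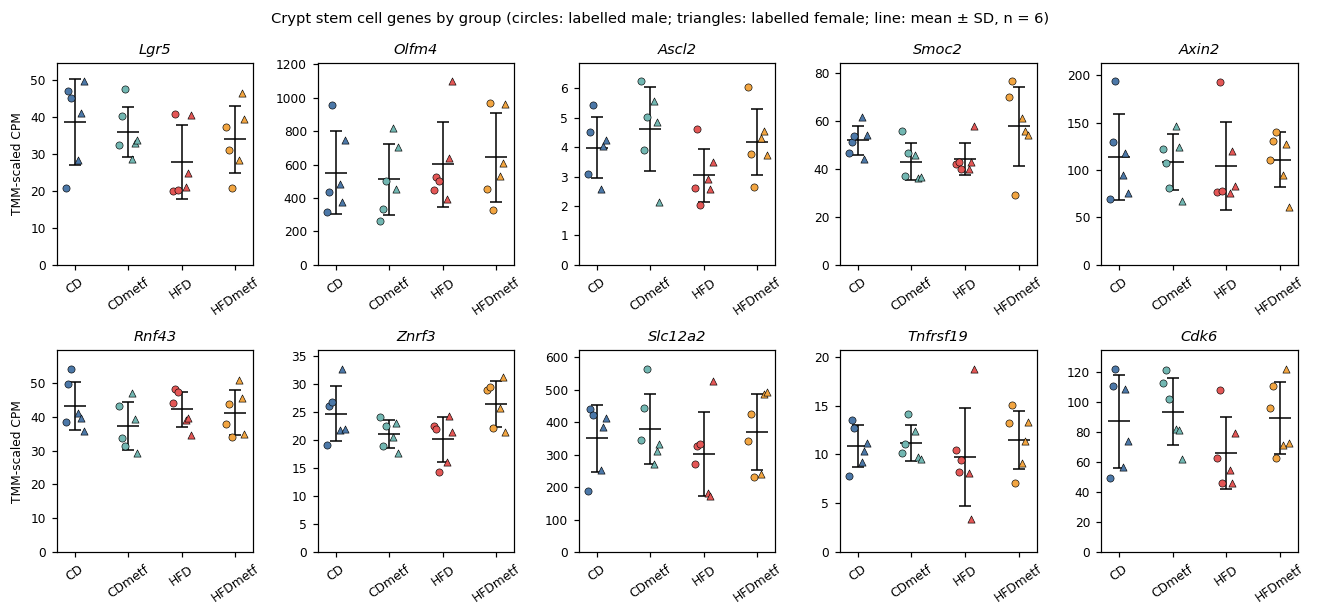
TMM-scaled CPM of the 10 genes, 1 point per library (circles labelled male, triangles labelled female), by group, with the mean ± SD of 6 libraries as a black line and bar. All groups overlap for every gene, and the single high HFD point for Olfm4, Smoc2, Slc12a2 and Tnfrsf19 is the library HFD F3.

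Reads of 3 members share annotated exon sequence with another gene. Olfm4 (chr14:79984081-80023139, plus strand, GRCm38) overlaps the non-coding Gm6999 on the same strand over 153 bases, Axin2 (chr11:108920349-108950783, plus strand) the antisense gene Gm11670 over 209 bases, and Cdk6 (chr5:3341485-3531008, plus strand) the antisense Gm17590 over 368 bases. Those partners held 40, 205 and 146 reads over all libraries. Whether strand was used in counting is not given in the sources used here.

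RefSeq promoter windows (GRCm38.p6, 250 bases before to 50 after a start site) were at hand for 6 of the 10 genes, as 8 windows. The windows of Tnfrsf19 and Cdk6 are shown because those genes varied together across animals, and that of Axin2 because it is a standard readout of Wnt signalling. Capitals mark the TCF/LEF core, searched as CTTTGA on either strand and found here as TCAAAG. The Tnfrsf19 window is at chr14:61037938-61038237 (minus strand), that of Cdk6 at chr5:3343643-3343942 (plus strand) and that of Axin2 at chr11:108920099-108920398 (plus strand).
Tnfrsf19: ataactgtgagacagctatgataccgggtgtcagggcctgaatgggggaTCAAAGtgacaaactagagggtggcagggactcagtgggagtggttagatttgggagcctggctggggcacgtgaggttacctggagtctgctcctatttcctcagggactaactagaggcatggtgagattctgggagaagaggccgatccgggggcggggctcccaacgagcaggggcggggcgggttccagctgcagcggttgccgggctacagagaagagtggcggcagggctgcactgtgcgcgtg
Cdk6: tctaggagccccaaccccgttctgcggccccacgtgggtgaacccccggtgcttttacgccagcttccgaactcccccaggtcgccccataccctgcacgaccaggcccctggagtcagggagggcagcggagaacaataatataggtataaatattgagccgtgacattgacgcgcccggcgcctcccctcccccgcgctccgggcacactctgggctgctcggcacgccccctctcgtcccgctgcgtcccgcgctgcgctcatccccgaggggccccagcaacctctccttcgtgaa
Axin2: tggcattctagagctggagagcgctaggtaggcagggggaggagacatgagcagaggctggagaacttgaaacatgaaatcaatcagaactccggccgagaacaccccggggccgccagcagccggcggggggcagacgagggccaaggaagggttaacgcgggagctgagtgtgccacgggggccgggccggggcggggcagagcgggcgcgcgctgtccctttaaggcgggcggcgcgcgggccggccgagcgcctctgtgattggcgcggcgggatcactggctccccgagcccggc
The core was found in that 1 window of the 8, beginning at position -201 from the start site, and in 16% of all 32851 windows in the table. The Axin2 window is 70.0% G and C and the Cdk6 window 66.7%. CACCTG, 1 form of the E-box that basic helix-loop-helix proteins bind, was searched on both strands, and other forms of the E-box were not searched. It was found once in the Ascl2 window and 3 times in the other Tnfrsf19 window (chr14:61046806-61047105), and in 20.2% of all windows. A match in these letters is a description of the sequence and shows no binding.

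The HFD vs. CD contrast asked what the high-fat diet did without the drug. Lgr5 (chr10:115450311-115587780, minus strand) ranged in CD from 20.8 to 49.7 CPM (median 43.3) and in HFD from 20.0 to 40.8 (median 23.0). Of the 6 HFD libraries, 4 lay below 25 CPM, but the groups overlapped. The fitted log2 fold change (logFC) was -0.44 (SE 0.200, 95% interval -0.85 to -0.02), and Lgr5 was lower in 6 of 6 pairs of the same labelled sex and replicate number. Its unadjusted p was 0.0405 and its adjusted p 1.00 (edgeR's quasi-likelihood test, Benjamini-Hochberg over 14076 genes), so the difference did not pass the threshold of 0.05. Of the 10 members, 0 passed it, as did 0% of all genes tested, and 1 member against 4.63% of all genes had an unadjusted p under 0.05. limma-voom and DESeq2 also called 0 members.

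Of the 10 members, 9 were nominally lower in HFD, against 51.2% of all genes, with a median logFC of -0.21 beside -0.005 over all genes. The count was 7 of 10 without CD M3 and 7 of 10 without HFD M2 and HFD F2. Znrf3 (chr11:5276324-5444847, minus strand) came next after Lgr5 by p, with 19.1 to 32.8 CPM in CD (median 24.02) and 14.3 to 24.4 in HFD (median 21.8). Its logFC was -0.28 (SE 0.137, unadjusted p = 0.0511, edgeR), lower in 5 of 6 pairs. Cdk6 ran from 49.4 to 121.9 CPM in CD (median 91.5) and from 45.8 to 108.0 in HFD (median 58.7), a logFC of -0.35 (SE 0.212, 95% interval -0.79 to 0.09). Olfm4 was the exception, with a logFC of 0.12 (95% interval -0.47 to 0.71). Its medians were 459.7 CPM in CD and 514.1 in HFD.

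The Lgr5 logFC was also read under other fits. It was -0.40 (unadjusted p = 0.0694, edgeR) without the library CD M3, -0.49 (unadjusted p = 0.0360, edgeR) without HFD M2 and HFD F2, and -0.46 (unadjusted p = 0.0631, edgeR) with no replicate block. Smooth muscle markers were nominally lower in HFD in 9 of 9 genes tested, with a median summed level of 2135 CPM (1862 to 3082) against 3219 (1670 to 3927) in CD, and enterocyte markers higher in 11 of 15, with 41438 CPM (22560 to 51693) against 32815 (13010 to 45481). B cell markers were nominally higher in 9 of 9 genes (median logFC 1.84), 7 of them at an unadjusted p under 0.05 (edgeR), and those of enteric neurons and glia lower in 5 of 5 (median -0.59), with a summed median of 11.0 CPM (6.00 to 24.7) in HFD against 22.6 (8.52 to 35.4) in CD. With the smooth muscle score as a covariate the Lgr5 logFC was -0.25 (unadjusted p = 0.168, edgeR), with the enterocyte score -0.34 (unadjusted p = 0.0539, edgeR) and with the B cell score -0.39 (unadjusted p = 0.0718, edgeR). The part of other cells in the Lgr5 value was not tested beyond these fits. The enterocyte list includes Apoa4 and Fabp1, which the paper lists among its top genes in diet contrasts. Its logFC in HFD vs. CD ran from -1.37 to 4.17 (median 0.12). Its summed level and score are therefore not a measure of enterocyte content alone. Without HFD F3, the library with the highest Olfm4, Smoc2, Slc12a2 and Tnfrsf19 of its group, 4 members had an unadjusted p under 0.05 in place of 1: Lgr5 (logFC -0.57), Cdk6 (-0.52), Smoc2 (-0.36) and Znrf3 (-0.36), with adjusted p-values from 0.531 to 0.586 (edgeR). The share of all genes under 0.05 in that fit is not given here. The rise is therefore not shown to be particular to the members.

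**Figure D2:**
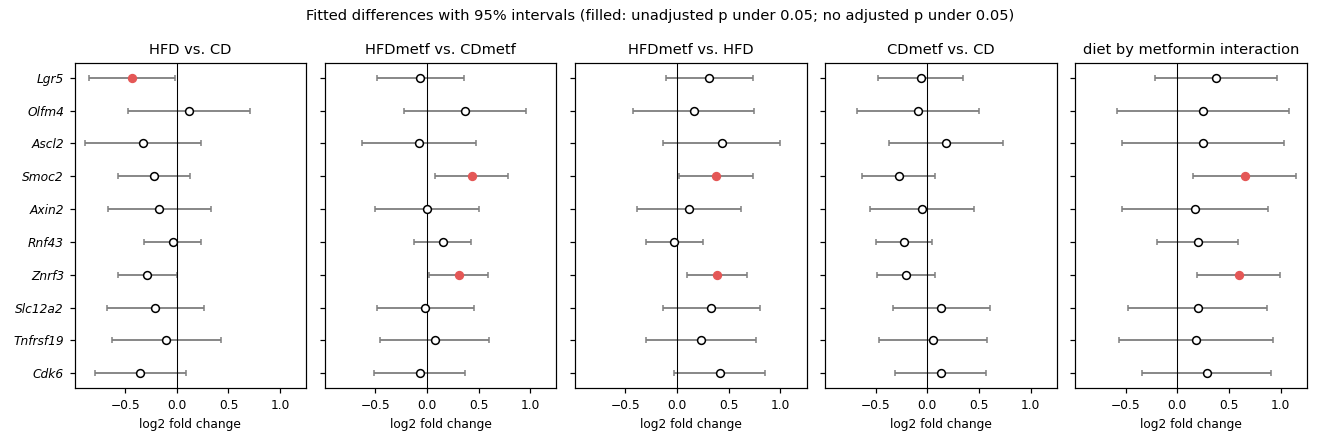
Fitted logFC of each member (points) with its 95% interval (bars) in 4 contrasts and in the diet by metformin interaction; filled points have an unadjusted p under 0.05. Of the 10 points, 9 lie left of 0 for HFD vs. CD, 9 of 10 right of 0 for HFDmetf vs. HFD and 10 of 10 right of 0 for the interaction, and no member passed after adjustment.

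Metformin on the high-fat diet was read from the HFDmetf vs. HFD contrast, which shares its HFD libraries with the one above. Of the 10 members, 9 were nominally higher with the drug, against 53.9% of all genes, with a median logFC of 0.32 (0.03 over all genes). The count was 9 without CD M3 and 8 without HFD M2 and HFD F2. Znrf3 ran from 21.4 to 31.3 CPM in HFDmetf (median 27.3) against 14.3 to 24.4 in HFD (median 21.8). Only the lower HFDmetf libraries fell among the HFD values, and 5 of 6 pairs were higher. The logFC was 0.39 (SE 0.139, unadjusted p = 0.0108, adjusted p = 0.640, edgeR). Smoc2 (chr17:14279506-14404790, plus strand) stood at 29.2 to 76.6 CPM in HFDmetf (median 58.6) and at 40.05 to 57.8 in HFD (median 42.4). HFDmetf M3 held the lowest Smoc2 of all 24 libraries while HFDmetf M2 held the highest, so the groups overlapped. Its logFC was 0.38 (SE 0.171, unadjusted p = 0.0387, adjusted p = 0.640, edgeR). With each library left out in turn the unadjusted p of Smoc2 was under 0.05 in 6 of 24 fits and ran from 0.0010 to 0.195 (edgeR), while Znrf3 stayed under 0.05 in 23 of 24, the exception being the fit without HFD F1 (0.0524). Without HFD M2 and HFD F2 together Smoc2 was at 0.34 (unadjusted p = 0.108, edgeR) and Znrf3 at 0.38 (unadjusted p = 0.0237, edgeR).

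In all, 0 members passed the adjusted threshold in that contrast, as did 0% of all genes, and 2 members had an unadjusted p under 0.05, as did 6.61% of all genes (edgeR). By limma-voom and by DESeq2 the count of adjusted calls among members was also 0. Ascl2 (chr7:142966829-142969264, minus strand) had the largest nominal logFC, 0.43 (SE 0.272), with 2.66 to 6.05 CPM (median 4.03) in HFDmetf and 2.04 to 4.61 (median 2.76) in HFD. Cdk6 followed at 0.41 (SE 0.212), Slc12a2 (chromosome 18) at 0.33 (SE 0.228) and Lgr5 at 0.31 (SE 0.202). Rnf43 (chr11:87662722-87735539, plus strand) differed least, at -0.03 (95% interval -0.31 to 0.25), with medians of 40.9 CPM in HFDmetf and 41.9 in HFD.

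Markers of other cells differed nominally as well. Enterocyte markers had a median summed level of 26117 CPM (7819 to 37281) in HFDmetf against 41438 in HFD and were nominally lower in 13 of 15 genes, smooth muscle markers were higher in 9 of 9, and proliferation markers, the genes of DNA replication and mitosis, in 16 of 16 (median logFC 0.36). Fibroblast markers were higher in 9 of 9 (median 0.49) and those of enteric neurons and glia in 5 of 5 (median 0.64). B cell markers were lower in 9 of 9, 8 of them at an unadjusted p under 0.05 (edgeR), with a median logFC of -2.42 and a summed median of 21.1 CPM (8.40 to 28.4) in HFDmetf against 29.8 (13.6 to 319.9) in HFD, and T cell markers were lower in 5 of 5. With the B cell score as a covariate 1 member had an unadjusted p under 0.05, Znrf3 at 0.33 (unadjusted p = 0.0291, edgeR), and Smoc2 was at 0.30 (unadjusted p = 0.106, edgeR). With the enterocyte score the members' median logFC was 0.07, Znrf3 was 0.27 (unadjusted p = 0.0698, edgeR) and 0 members had an unadjusted p under 0.05. The fall in the count was not particular to the members, since 213 of 14402 genes were under 0.05 in that fit, against 931 of 14076 in the main fit. With the smooth muscle score the members' median logFC was 0.12, and 258 of 14855 genes were under 0.05. The median logFC over all genes in these 2 fits is not given here, so the lower medians are not shown to be particular to the members. Single libraries weighed on the count in both directions: 5 members had an unadjusted p under 0.05 without HFD F3 (Znrf3, Smoc2, Cdk6, Tnfrsf19 and Slc12a2; adjusted p 0.267 to 0.276, edgeR), 5 without HFDmetf M3 (Smoc2, Znrf3, Slc12a2, Lgr5 and Cdk6; 0.322 to 0.324) and 0 without HFD F1. The shares of all genes in these fits are not given here, so the shifts are not shown to be particular to the members.

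On the control diet, in the CDmetf vs. CD contrast, 0 of 10 members had an adjusted or an unadjusted p under 0.05, against 0% and 5.14% of all genes (edgeR), and the median logFC was -0.06. Lgr5 had a logFC of -0.06 (95% interval -0.48 to 0.35), with 28.8 to 47.8 CPM in CDmetf (median 33.5). Smoc2 was nominally lower at -0.28 (SE 0.169), with 36.4 to 55.8 CPM in CDmetf (median 41.5) and 44.2 to 61.8 in CD (median 52.5), and Rnf43 at -0.22 (SE 0.132). Slc12a2, Cdk6 and Ascl2 leaned the other way, at 0.14, 0.13 and 0.18. Proliferation markers were nominally higher on this diet too, in 16 of 16 genes (median logFC 0.19, beside -0.002 over all genes). Fibroblast markers were higher in 8 of 9 (median 0.28), while smooth muscle markers were lower in 7 of 9. Enterocyte markers were lower in 10 of 15, and B cell markers higher in 9 of 9 (median 2.32).

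Both diets under the drug were compared in HFDmetf vs. CDmetf, where 2 members had an unadjusted p under 0.05, as did 7.87% of all genes, and 0 had an adjusted p under 0.05, as did 0% (edgeR). They were Smoc2, with a logFC of 0.43 (SE 0.170, unadjusted p = 0.0191, adjusted p = 0.599) and higher values in 5 of 6 pairs, and Znrf3, with 0.31 (SE 0.138, unadjusted p = 0.0357, adjusted p = 0.627), also in 5 of 6. The CDmetf libraries for Znrf3 lay between 17.7 and 24.1 CPM (median 21.6). Of the members, 5 were nominally higher and 5 lower (55.2% of all genes were higher), and the median logFC was 0.04. Lgr5 was at -0.06 (95% interval -0.48 to 0.36) and Axin2 at -0.001 (95% interval -0.50 to 0.50). Proliferation markers were nominally higher in HFDmetf in 16 of 16 genes (median logFC 0.14). B cell markers were lower in HFDmetf in 9 of 9 genes (median logFC -2.60), all 9 at an unadjusted p under 0.05, and T cell markers in 5 of 5 (median -1.23), 4 of them at an unadjusted p under 0.05 (edgeR). With the B cell score as a covariate 0 members had an unadjusted p under 0.05, with Smoc2 at 0.37 (unadjusted p = 0.0525, edgeR) and Znrf3 at 0.28 (unadjusted p = 0.0695, edgeR). Over all genes, 953 of 14402 were under 0.05 in that fit, against 1108 of 14076 in the main fit.

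Whether the change on metformin differed between the diets was tested directly as an interaction. The estimate was above 0 for 10 of 10 members, against 54% of all genes, with a median of 0.25 on the log2 scale. It was above 0 for 9 without CD M3 (median 0.14) and for 8 without HFD M2 and HFD F2 (median 0.30). With the smooth muscle score as a covariate it was above 0 for 8 (median 0.12). With the enterocyte score it was above 0 for 10 (median 0.12), and with the B cell score for 9 (median 0.21). The medians over all genes in these fits are not given here. Znrf3 had the smallest p: 0.59 (SE 0.194, 95% interval 0.19 to 1.00, unadjusted p = 0.0060, adjusted p = 0.709, edgeR). Smoc2 had the larger estimate, 0.65 (SE 0.240, 95% interval 0.15 to 1.15, unadjusted p = 0.0128, adjusted p = 0.799, edgeR). Their groups followed the same order, with medians for Znrf3 of 24.02 CPM in CD, 21.6 in CDmetf, 21.8 in HFD and 27.3 in HFDmetf. In all, 0 members passed the adjusted threshold, as did 0% of all genes, and 2 had an unadjusted p under 0.05 against 6.03% of all genes. With each library left out in turn, Znrf3 kept an unadjusted p between 0.0026 and 0.0149 and Smoc2 between 0.00035 and 0.0331 (edgeR, 24 fits). Without HFD M2 and HFD F2 together the estimates were 0.60 for Znrf3 and 0.63 for Smoc2, and without CD M3 0.52 and 0.62. B cell markers changed in the opposite sense, with a median interaction of -4.79 over 9 genes and summed medians of 18.8 CPM in CD (6.93 to 73.0), 66.9 in CDmetf (11.7 to 412.9), 29.8 in HFD (13.6 to 319.9) and 21.1 in HFDmetf (8.40 to 28.4), and at most 1 of the 9 genes was at 0 reads in a library. With the B cell score as a covariate the Smoc2 estimate was 0.54 (unadjusted p = 0.0535, edgeR) and that of Znrf3 0.53 (unadjusted p = 0.0220, edgeR).

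Averaged over the drug, diet left 0 members at an unadjusted p under 0.05 (5.96% of all genes) and a median logFC of -0.05. Averaged over diet, metformin likewise left 0 (5.04% of all genes), and the largest nominal value was Ascl2 at 0.31 (SE 0.190). Adjusted calls among all genes were 0% in both (edgeR). Between libraries labelled male and female 0 members had an unadjusted p under 0.05, against 7.27% of all genes (also 0 members without HFD M2 and HFD F2), and 0.0071% of all genes were called after adjustment. Olfm4 was nominally lower in males, with a logFC of -0.37 (SE 0.202), and Axin2 and Cdk6 nominally higher at 0.28 (SE 0.171) and 0.26 (SE 0.150).

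The members also varied together from animal to animal. Over the 24 libraries, 40 of the 45 pairs of members had a positive correlation of log2 CPM, and 17 had an adjusted p under 0.05 (permutation test, 100000 resamples, 2-sided, adjusted over the 45). Lgr5 and Slc12a2 were the closest pair, with Pearson's r = 0.814 and Spearman's rho = 0.777 (adjusted permutation p 0.0003 and 0.0004). It was 0.810 without CD M3 and 0.836 without HFD M2 and HFD F2. Among deviations from the group means r was 0.815, without the 2 libraries farthest from the median 0.887, and within replicate numbers 1, 2 and 3 it was 0.779, 0.804 and 0.802. Among the 14 shallower libraries it was 0.709 and among the 10 deeper ones 0.935. Tnfrsf19 (chr14:60963875-61046490, minus strand) and Slc12a2 had r = 0.798 and rho = 0.858 (adjusted permutation p 0.0003 and 0.0004), with 0.772 without the farthest 2 and 0.813, 0.939 and 0.936 within numbers. Cdk6 joined that group, with r = 0.767 to Lgr5 (rho = 0.705), 0.781 to Ascl2 (rho = 0.750) and 0.709 to Slc12a2 (rho = 0.686), all with adjusted permutation p from 0.0003 to 0.0024, and without the farthest 2 libraries these were 0.733, 0.746 and 0.620.

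Olfm4 and Rnf43 stood apart from that set. Olfm4 had r = 0.34 with Lgr5 and 0.06 with Cdk6, and none of its 9 correlations with other members had an adjusted p under 0.05. Rnf43 had r = -0.07 with Lgr5 and -0.13 with Slc12a2, and its closest member was Axin2, with r = 0.560 (rho = 0.530, adjusted permutation p 0.0165 and 0.0286). That relation between the Wnt feedback genes was 0.475 without CD M3 alone, 0.528 without HFD M2 and HFD F2, 0.444 without CD M3 and HFDmetf F3, the 2 libraries farthest from the median, and 0.104 among the shallower libraries. Axin2 itself followed the share of unmapped reads, with r = 0.612 and rho = 0.623 (adjusted permutation p 0.0316 and 0.0270 over 20 relations with depth and mapping). Without the farthest 2 libraries it was 0.610, without CD M3 0.631 and without HFD M2 and HFD F2 0.610. Within replicate numbers that r was 0.834, -0.104 and 0.598, so it did not hold within number 2.

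**Figure D3:**
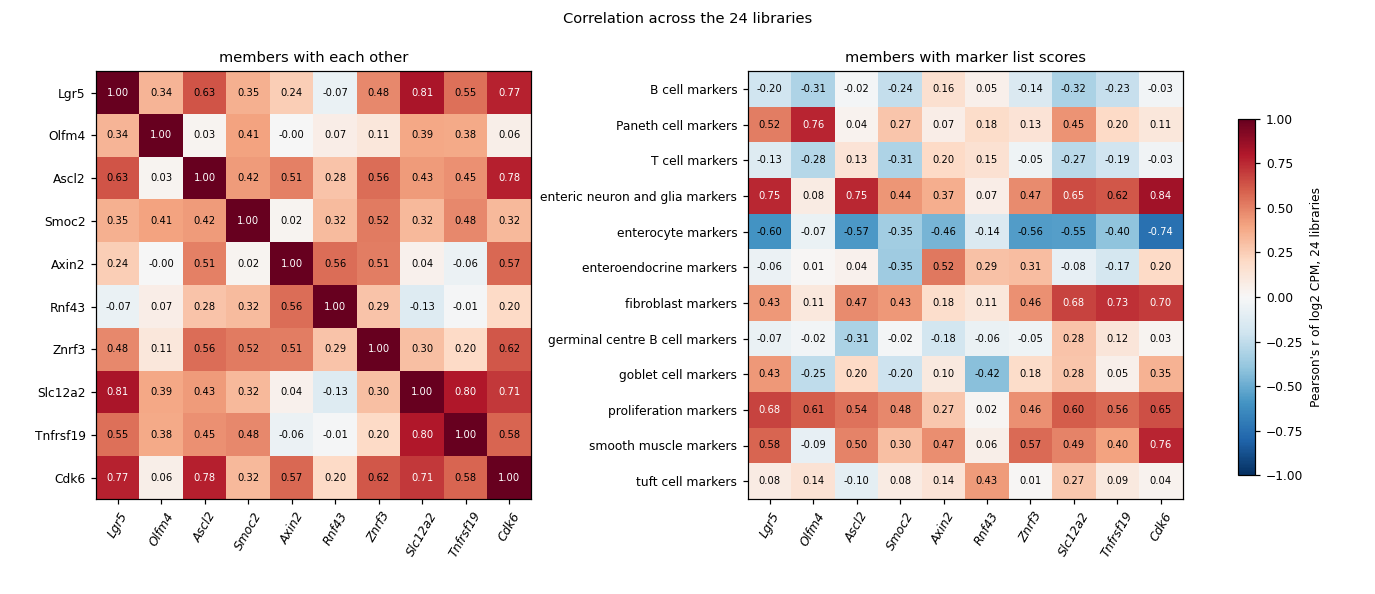
Pearson's r over the 24 libraries, among the 10 members (left) and between each member and the mean z-score of 12 marker lists (right), with red above 0 and blue below. At left Lgr5, Slc12a2 and Cdk6 share values from 0.709 to 0.814. At right Olfm4 has 0.761 against Paneth cell markers, and Cdk6 has a higher value against those of enteric neurons and glia.

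Set against markers of other cells, 25 of 120 correlations had an adjusted p under 0.05. Olfm4 followed the markers of Paneth cells, which sit between the stem cells, with r = 0.761 and rho = 0.762 (adjusted permutation p 0.0008 and 0.0006), and 0.784 without the farthest 2 libraries. Within replicate numbers r was 0.696, 0.590 and 0.851. Lgr5 followed the proliferation markers (r = 0.678, rho = 0.573, adjusted permutation p 0.0038 and 0.0264), with 0.559 without the farthest 2 libraries, though within number 2 its r was 0.185. Cdk6 ran against the enterocyte markers, with r = -0.743 and rho = -0.796 (adjusted permutation p 0.0008 and 0.0006) and -0.674, -0.660 and -0.775 within numbers, and -0.802 without the farthest 2 libraries. Lgr5 did so less closely at r = -0.596 (rho = -0.601, adjusted permutation p 0.0154 and 0.0185), and -0.617 without the farthest 2. Without CD M3 these 4 values of r, in the order given, were 0.752, 0.664, -0.720 and -0.568, and without HFD M2 and HFD F2 they were 0.768, 0.684, -0.757 and -0.590.

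Marker scores of cells outside the epithelium also correlated with some members. Cdk6 had r = 0.841 with the markers of enteric neurons and glia (rho = 0.787) and 0.758 with smooth muscle (rho = 0.734). Lgr5 and Ascl2 each had r = 0.752 with the neuronal and glial list, whose summed level ran only from 6.00 to 42.99 CPM. Tnfrsf19 had r = 0.734 with fibroblast markers (rho = 0.736), which summed to between 277.2 and 1464 CPM. All of these had an adjusted permutation p of 0.0085 or less for both coefficients. Without the farthest 2 libraries the r of Cdk6 with these lists was 0.780 and 0.769, that of Lgr5 0.721, that of Ascl2 0.688 and that of Tnfrsf19 0.612. Without CD M3 the 5 values ran from 0.735 to 0.828, and without HFD M2 and HFD F2 from 0.652 to 0.811. The part of non-epithelial tissue in the members' levels was not tested beyond the covariate fits above.

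**Figure D4:**
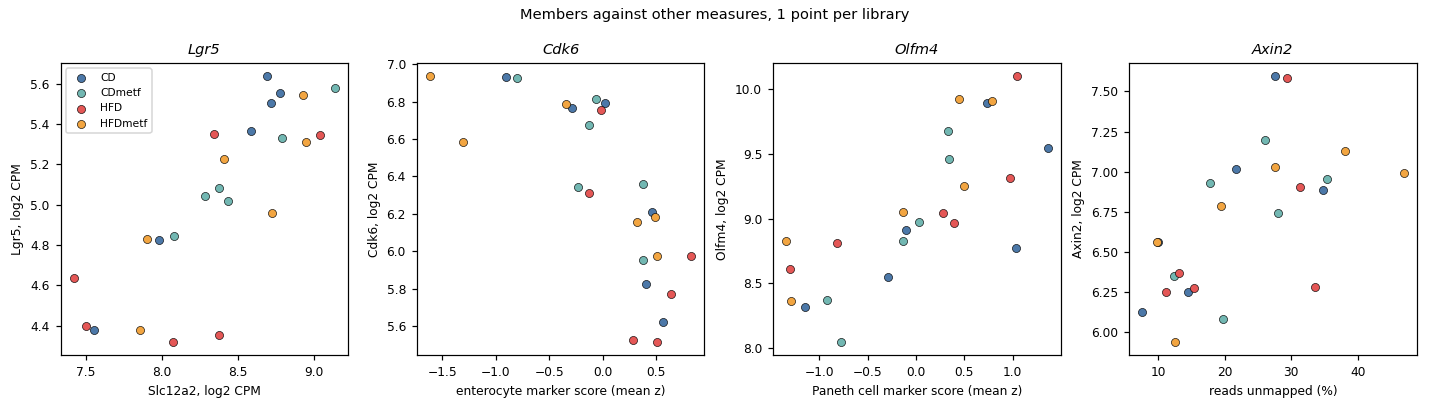
Relations across the 24 libraries, coloured by group: Lgr5 against Slc12a2 and Axin2 against the percent of unmapped reads, and Cdk6 and Olfm4 against the mean z-scores of enterocyte and Paneth cell markers; values of the genes are log2 CPM. The 4 groups mix along each relation, and r is 0.814, 0.612, -0.743 and 0.761 in the order named.

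Of all 14076 genes tested, those with patterns most like Lgr5 over the 24 libraries, by Spearman's rho of log2 CPM, were Nrep (0.863), Car8 (0.860), Bbx (0.859), Alkbh8 (0.857) and Klf12 (0.852). For Olfm4 they were Cps1 (0.871), an enzyme of the urea cycle that small intestinal epithelium also makes, Prim1 (0.869), a subunit of DNA primase, Pnpt1 (0.857), Neil3 (0.846), a DNA glycosylase, and Ang4 (0.844), an antimicrobial ribonuclease of Paneth cells. These were picked as the highest of all genes and carry no test.

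Other genes of the stem cell and its niche were read from fixed lists. Of these, 0 passed the adjusted threshold in any of the 4 contrasts or the interaction (edgeR). Among 25 other stem cell signature genes tested, 20 were nominally higher in HFDmetf than in HFD, where 53.9% of all genes were, and 8 had an unadjusted p under 0.05 (edgeR), 7 of them higher, against 6.61% of all genes. Fibroblast and smooth muscle markers were each higher in 9 of 9 genes in that contrast, and the part of such tissue in these values was not tested. The 4 signature genes with the smallest p were Igfbp4, an insulin-like growth factor binding protein (logFC 0.55, SE 0.207), Clu, the secreted chaperone clusterin (-1.25, SE 0.476), Prelp, a matrix proteoglycan (0.88, SE 0.363), and Lrig1, a brake on ErbB receptors (0.36, SE 0.148). Clu was the one that was lower. Its logFC was 1.45 (SE 0.474) in HFD vs. CD and 1.55 (SE 0.471) in CDmetf vs. CD, and its interaction was -2.80 (SE 0.667, unadjusted p = 0.00039, adjusted p = 0.547, edgeR), the same order of signs as the B cell markers, whose part in it was not tested.

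Of 12 other Wnt target genes, 10 were nominally higher in HFDmetf than in HFD (median logFC 0.33), against 53.9% of all genes. Ephb3 at 0.53 (SE 0.244) and Ephb2 at 0.42 (SE 0.192), receptors that position cells along the crypt, had unadjusted p-values of 0.0416 and 0.0417 (edgeR). All 6 of the Wnt ligands and R-spondins tested were also nominally higher (median 0.39), with 0 at an unadjusted p under 0.05. Of the receptors and transduction genes 21 of 24 were nominally lower in HFD than in CD (median -0.11), against 51.2% of all genes, again with 0 at an unadjusted p under 0.05. Sfrp5, a secreted Wnt antagonist, had a logFC of 0.98 (SE 0.457) in HFDmetf vs. HFD and 1.75 (SE 0.472, unadjusted p = 0.0013, adjusted p = 0.582, edgeR) in HFDmetf vs. CDmetf. In that last contrast Gsk3b and Apc, both of the complex that degrades beta-catenin, were at -0.29 (SE 0.0947) and -0.22 (SE 0.0940).

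BMP signals from the villus restrain stem cell division. Their target genes Id2 and Id3 were nominally lower in HFD than in CD, at -0.42 (SE 0.158) and -0.49 (SE 0.192), with unadjusted p-values of 0.0159 and 0.0179 (edgeR), 2 of 15 genes of that list against 4.63% of all genes. Notch, which holds crypt cells out of the secretory fate, gave 1 of 12 genes there, the ligand Dll4 at -0.39 (SE 0.177), with -0.40 (SE 0.179) in HFDmetf vs. CDmetf. In HFDmetf vs. CDmetf 8 of 12 Notch genes were nominally higher (median logFC 0.11), against 55.2% of all genes. Besides Dll4, 1 Notch gene that was higher had an unadjusted p under 0.05 there, against 7.87% of all genes (edgeR). Of 9 EGF family genes, Btc, an ErbB ligand, was at 0.60 (SE 0.277) and Erbb3, its receptor's partner, at -0.40 (SE 0.191) in HFDmetf vs. HFD, where 6.61% of all genes had an unadjusted p under 0.05 (edgeR).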

How the data were processed

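RNA from the distal small intestine was depleted of ribosomal RNA, and directional libraries were sequenced as paired reads on a DNBSEQ-G400RS instrument. The authors trimmed reads with Trimmomatic 0.39 (window 5, quality 25, minimum 30 bp), aligned to GRCm38 with STAR 2.5.3a, which also gave the read count of each gene. The deposited values are raw counts, 1 column per animal; the annotation release and the strand used in counting are not given in the sources used here. The 4 rows of unmapped and unassigned reads were left out of library sizes. Symbols came from a gene name table (55450 of 55536 identifiers matched), and coordinates and exon lengths from GENCODE M21 (GRCm38).

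Counts were scaled by TMM, filtered with filterByExpr and fitted with edgeR 4.0.16 (R 4.3.3) by quasi-likelihood, on group, labelled sex and replicate number, which left 17 residual degrees of freedom. The study's methods use sex and sequencing block as covariates. The labels do not say that the replicate number is that block. Deviations from the group means correlated by 0.130 on average between libraries of the same number (72 pairs) and by -0.064 between different numbers (144 pairs). P-values were adjusted by Benjamini-Hochberg over all 14076 genes, with a threshold of 0.05. SE is the logFC divided by the square root of F. Pairs are the 6 pairs of libraries with the same labelled sex and number. Log2 CPM for correlations used a prior count of 1, and marker scores are mean z-scores. Scripts were tested on simulated data. The other settings tried were DESeq2 1.42.0 and its size factors (RLE), limma-voom (limma 3.58.1), 2 filters, no block, libraries left out, and marker scores or depth as covariates. The fits with the enterocyte score or depth as a covariate and the correlations within depth classes or against depth and unmapped reads were added after seeing the data.

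The members and the gene lists were chosen with earlier results of these data known. All 10 members were tested in each contrast. From each list, at most the 4 genes with the smallest unadjusted p under 0.05 in a contrast are named, besides the 5 genes most like each of Lgr5 and Olfm4. No 2 libraries held identical counts. Intervals are 95%. The edgeR p-values set each difference against the variation between animals left after group, labelled sex and replicate number. The permutation test shuffled all 24 libraries without regard to group or number. Read counts were lowest for Ascl2 and Tnfrsf19.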

Additional observations from a re-analysis of the deposited data

Results flagged for a closer look

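Within each group of 6 libraries, the gap between the most extreme value and its neighbour was compared with the whole range for each of the 10 genes (Dixon's criterion, 40 groups tested). Chance alone marks about 1 in 20 such groups, and 3 were marked here, all of them in HFD. Olfm4 stood at 1097 CPM in HFD F3, against 391.5 to 636.9 in the other 5 libraries. Smoc2 was also high in HFD F3, at 57.8 CPM against 40.05 to 42.8. Axin2 was at 192.2 CPM in the library labelled HFD M2, against 76.0 to 119.5, and the sex-linked reads of that library go against its label.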

How the results depend on the processing

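In all, 0 members had an adjusted p under 0.05 in any comparison under any of 13 other settings or in 24 fits that each left out 1 library. The smallest adjusted p in the 4 contrasts and the interaction was 0.267. With no replicate block, HFD vs. CD had 0 in place of 1 member at an unadjusted p under 0.05, and it changed no other count by over 1.5 times. That count was 2 with RLE size factors or at least 10 counts in every library, and 0 with no filter on low counts, without CD M3, or with the B cell, smooth muscle or enterocyte score as a covariate. In HFDmetf vs. CDmetf it was 1 with no filter or the enterocyte score and 0 with the B cell score. In HFDmetf vs. HFD it was 1 with no filter, without HFD M2 and HFD F2, without CD M3, with only the 12 libraries compared or with the B cell score, and 0 with the smooth muscle or enterocyte score. Over all genes that contrast had 258 of 14855 under 0.05 with the smooth muscle score and 213 of 14402 with the enterocyte score. In the main fit it had 931 of 14076. HFD vs. CD had 652 of 14076 genes in the main fit and 517 of 14855 with the smooth muscle score. It had 714 and 789 of 14402 with the enterocyte and B cell scores. The member count was 1 in CDmetf vs. CD with only the 12 libraries, 1 in the interaction with the B cell score, 1 for averaged diet with the enterocyte score, 1 for averaged metformin without CD M3, and 1 for sex with no filter or without CD M3. Leaving out 1 library gave 0 to 4 members in HFD vs. CD (0 without CD M2, CD M3, CD F3, HFD M3 or HFD F1), 1 to 3 in HFDmetf vs. CDmetf, 0 to 5 in HFDmetf vs. HFD, 0 to 1 in CDmetf vs. CD, 2 to 2 in the interaction, 0 to 1 for averaged diet, 0 to 2 for averaged metformin and 0 to 2 for sex. The shares of all genes in these fits are not given here, so such shifts are not shown to be particular to the members.

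Of 630 member values under other settings 27 changed sign, all from logFC under 0.23 in size, and 42 of 1200 did with 1 library left out. Without CD M3, Axin2 was 0.11 in HFD vs. CD, 0.015 in HFDmetf vs. CDmetf, 0.20 in CDmetf vs. CD and -0.093 in the interaction, Rnf43 was 0.075 in HFD vs. CD and Olfm4 0.097 in CDmetf vs. CD. Without HFD M2 and HFD F2, Slc12a2 was 0.0012 in HFD vs. CD and -0.048 in the interaction, and Tnfrsf19 was 0.18, -0.073 in HFDmetf vs. HFD and -0.13 in the interaction. By limma-voom, Tnfrsf19 was 0.080 in HFD vs. CD, Ascl2 0.27 in HFDmetf vs. CDmetf and -0.030 in CDmetf vs. CD, and Axin2 0.019 in HFDmetf vs. CDmetf. In that contrast Axin2 was also 0.024 and Slc12a2 0.010 with at least 10 counts, and Axin2 0.0086 with no replicate block, 0.022 with only the 12 libraries and 0.045 with the B cell score, where Tnfrsf19 was -0.030 and, in the interaction, -0.026. With the smooth muscle score Tnfrsf19 was 0.052 in HFD vs. CD and -0.0028 in the interaction, Slc12a2 -0.016 in the interaction and Axin2 -0.0040 in HFDmetf vs. HFD, where the enterocyte score gave -0.030. The cause was not tested.

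With 1 library left out, the ranges that crossed 0 were, in HFD vs. CD, Olfm4 -0.00067 to 0.33, Axin2 -0.30 to 0.11, Rnf43 -0.10 to 0.075 and Tnfrsf19 -0.43 to 0.064. In HFDmetf vs. CDmetf they were Lgr5 -0.21 to 0.081, Ascl2 -0.26 to 0.020, Axin2 -0.11 to 0.19, Slc12a2 -0.11 to 0.16, Tnfrsf19 -0.041 to 0.22 and Cdk6 -0.16 to 0.032. In HFDmetf vs. HFD they were Olfm4 -0.18 to 0.33, Axin2 -0.0018 to 0.23 and Rnf43 -0.15 to 0.024, and in CDmetf vs. CD Olfm4 -0.37 to 0.097, Axin2 -0.25 to 0.20, Tnfrsf19 -0.036 to 0.15 and Cdk6 -0.010 to 0.27. In the interaction they were Olfm4 -0.052 to 0.49, Axin2 -0.093 to 0.34 and Tnfrsf19 -0.0043 to 0.50.

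Axin2 with unmapped reads was 0.834 within number 1, -0.104 within number 2 and 0.235 in the 14 shallower libraries. In the 10 deeper libraries, Lgr5 with Slc12a2 was 0.935, Tnfrsf19 with Slc12a2 0.919, Olfm4 with Paneth cell markers 0.900 and Cdk6 with enterocyte markers -0.885. Tnfrsf19 with Slc12a2 was 0.939 and 0.936 within numbers 2 and 3, Cdk6 with Ascl2 0.908 and 0.920 within numbers 1 and 3, and Lgr5 with enterocyte markers -0.840 within number 1. Over all genes, DESeq2 called 13 in HFD vs. CD, 3 in HFDmetf vs. CDmetf, 0 in HFDmetf vs. HFD, 4 in CDmetf vs. CD, 4 in the interaction, 48 for averaged diet, 0 for averaged metformin and 19 for sex, where edgeR called 0 apart from 1 for sex.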
